A study of Mus musculus with 54 samples.

Results

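The choroid plexus genes examined here were 10 genes known for their expression in the epithelium of the choroid plexus: Ttr, Kl, Folr1, Kcne2, Kcnj13, Aqp1, Otx2, Clic6, Sostdc1 and Enpp2. They were chosen by name, and each was found once among the 47069 genes of the count table through the GRCm38 annotation. PolyA RNA was sequenced from 3 brain regions, cerebellum, cortex and striatum, of each of 18 mice aged 8 weeks, which gave 54 libraries. The mice were 10 Mbd5+/GT mice, 5 females and 5 males, and 8 wild-type (WT) littermates, 5 females and 3 males, all on a C57BL/6 background. Mbd5+/GT mice carry 1 allele of Mbd5 with a gene-trap cassette in an intron, which makes a hypomorph rather than a null, although the labels call the genotype a heterozygous deletion. The mice came from 3 litters, of which litter 1 held 3 mice of each genotype, all female, litter 2 was made up of 1 WT male and 4 Mbd5+/GT males, and litter 3 held the rest. The design asks how a reduced dose of Mbd5 alters expression in each region. No sample was a dissected choroid plexus, so each value is the RNA that the plexus contributed to a piece of cerebellum, cortex or striatum, together with any expression of the gene by other cells there.

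The choroid plexus is a fold of vascular tissue covered by a secretory epithelium that projects into the ventricles and makes the cerebrospinal fluid. The plexus of the fourth ventricle lies against the cerebellum, and that of the lateral ventricles lies beside the striatum and beneath the cortex and hippocampus. Its epithelial cells pump ions and water, carry folate and thyroid hormone into the fluid, and shed proteins into it. In brain tissue Ttr, which encodes transthyretin, the carrier of thyroid hormone and of retinol bound to its binding protein, is made almost entirely by these cells, so its level is widely used as a sign of plexus tissue. Some of the other genes have further sources in the brain: Enpp2 is also made by oligodendrocytes, Kl by neurons, and Otx2 by granule cells of the posterior cerebellum.

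The homeodomain factor Otx2 is a regulator of choroid plexus identity, so the letters of its preferred site, TAATCC, were searched on both strands of the 250 bases before each annotated start for the 5 of 10 genes with an entry among the RefSeq promoters of GRCm38.p6, which were Kcnj13, Kl, Aqp1, Otx2 and Kcne2. The site was present in 6.25% of all 32851 promoter entries of the same length. Among the 5 genes it was found before 1 of the 4 starts of Otx2 and before no start of the others. A second set of letters, GTAAACA, the forkhead motif of the ciliary factor Foxj1, was present in 3.17% of all entries and in none of those of the 5 genes. These are matches of letters in short windows, not sites of binding. The windows of Kcnj13 and Kcne2, the genes with the smallest p-values between genotypes, and the window of Otx2 with the match follow, each on the strand of the gene, with the match in capitals.
Kcnj13, chr1:87394730-87394979, minus strand: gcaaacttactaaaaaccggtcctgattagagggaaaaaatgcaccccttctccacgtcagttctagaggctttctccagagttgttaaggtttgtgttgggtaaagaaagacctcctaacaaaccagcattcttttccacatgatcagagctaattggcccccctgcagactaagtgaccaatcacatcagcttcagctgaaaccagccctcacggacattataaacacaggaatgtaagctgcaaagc
Kcne2, chr16:92292139-92292388, plus strand: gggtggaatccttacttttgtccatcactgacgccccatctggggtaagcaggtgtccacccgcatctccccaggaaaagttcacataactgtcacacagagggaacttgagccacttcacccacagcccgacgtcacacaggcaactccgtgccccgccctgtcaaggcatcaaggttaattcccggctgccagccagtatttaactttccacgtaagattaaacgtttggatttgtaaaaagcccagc
Otx2, chr14:48665110-48665359, minus strand: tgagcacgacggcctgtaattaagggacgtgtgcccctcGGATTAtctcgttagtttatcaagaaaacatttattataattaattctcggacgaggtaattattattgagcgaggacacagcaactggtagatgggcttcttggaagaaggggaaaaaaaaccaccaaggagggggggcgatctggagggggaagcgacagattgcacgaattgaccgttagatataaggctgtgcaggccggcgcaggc

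Libraries held from 25295973 to 49027399 counted reads. Mbd5 itself was lower in the Mbd5+/GT libraries of each region, with log2 fold changes (log2FC) of -0.34, -0.49 and -0.51 for cerebellum, cortex and striatum (edgeR's quasi-likelihood test, Benjamini-Hochberg adjusted p = 0.0091, 0.00012 and 9.4e-05), as the genotype labels say. Neuronal markers set some libraries apart from the rest of their region. The cerebellum library of Mbd5+/GT mouse M755 held a level of 1.76 CPM (read counts scaled to the library) of the granule cell gene Gabra6 and that of WT mouse M754 held 225 CPM, against 539 to 955 CPM in the other 16, and their oligodendrocyte gene Mbp stood at 13447 and 7839 CPM against 1768 to 3780 CPM. The striatum library of WT mouse M754 held 54.4 CPM of Ppp1r1b, a gene of striatal projection neurons, against 164 to 2636 CPM in the other 17. The cortex libraries of WT mice M752, M761 and M765 held 453 to 494 CPM of Ppp1r1b, against 52.3 to 396 CPM in the other 15. The striatum libraries of WT mice M751 and M752 were labelled as repeated. Medians or counts of the genotype and region comparisons without these libraries stand beside the results.

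The level of Ttr differed by more than 500-fold among libraries of the same region. Levels are given as CPM scaled by TMM over the 54 libraries, which follow 1 gene across samples. In cerebellum, Ttr ranged from 4.09 through a median of 136 to 2376 CPM in Mbd5+/GT mice and from 5.82 through 178 to 2328 CPM in WT mice. In cortex it ranged from 1.90 through 268 to 1196 CPM in Mbd5+/GT mice and from 4.31 through 40.5 to 217 CPM in WT mice. In striatum it ranged from 6.37 through 111 to 3774 CPM in Mbd5+/GT mice and from 7.43 through 62.8 to 5781 CPM in WT mice. Both genotypes therefore held libraries with less than 10 CPM of Ttr in every region, and the ranges of the genotypes overlapped in each. The highest library exceeded the lowest by 582-fold in cerebellum, 629-fold in cortex and 907-fold in striatum. The SD of Ttr over the 18 libraries was 3.43, 2.99 and 3.08 on the log2 scale, where the median gene had 0.34, 0.25 and 0.31. That spread placed Ttr 7th of 18160 genes tested in cerebellum, 7th of 18661 in cortex and 9th of 18546 in striatum.

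The libraries rich in Ttr were a minority of each region. In cerebellum 7 libraries exceeded 500 CPM, those of Mbd5+/GT mice M753, M760, M756 and M763 and WT mice M761, M757 and M762, and the next held 230 CPM. In cortex 4 libraries exceeded 500 CPM, and all 4 were of Mbd5+/GT mice, with 1196 CPM in mouse M758, 1092 CPM in mouse M755, 893 CPM in mouse M764 and 713 CPM in mouse M766. The next cortex libraries were Mbd5+/GT mouse M756 with 389 CPM and WT mouse M757 with 217 CPM. In striatum 4 libraries exceeded 500 CPM, WT mice M751 and M762 with 5781 and 3669 CPM and Mbd5+/GT mice M758 and M763 with 3774 and 2542 CPM. Mouse M758 was thus rich in cortex and striatum, with 8.90 CPM in cerebellum, whereas mice M762 and M763 were rich in cerebellum and striatum, with 39.9 and 11.9 CPM in cortex. All 5 cerebellum libraries of litter 2 were among the 11 poor in Ttr, at 4.09 to 230 CPM, while litter 1 spanned 8.90 to 2328 CPM and litter 3 spanned 7.97 to 2376 CPM. The 10 genes together took 0.0176% to 0.451% of a cerebellum library, 0.0194% to 0.231% of a cortex library and 0.0271% to 0.816% of a striatum library.

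**Figure D1:**
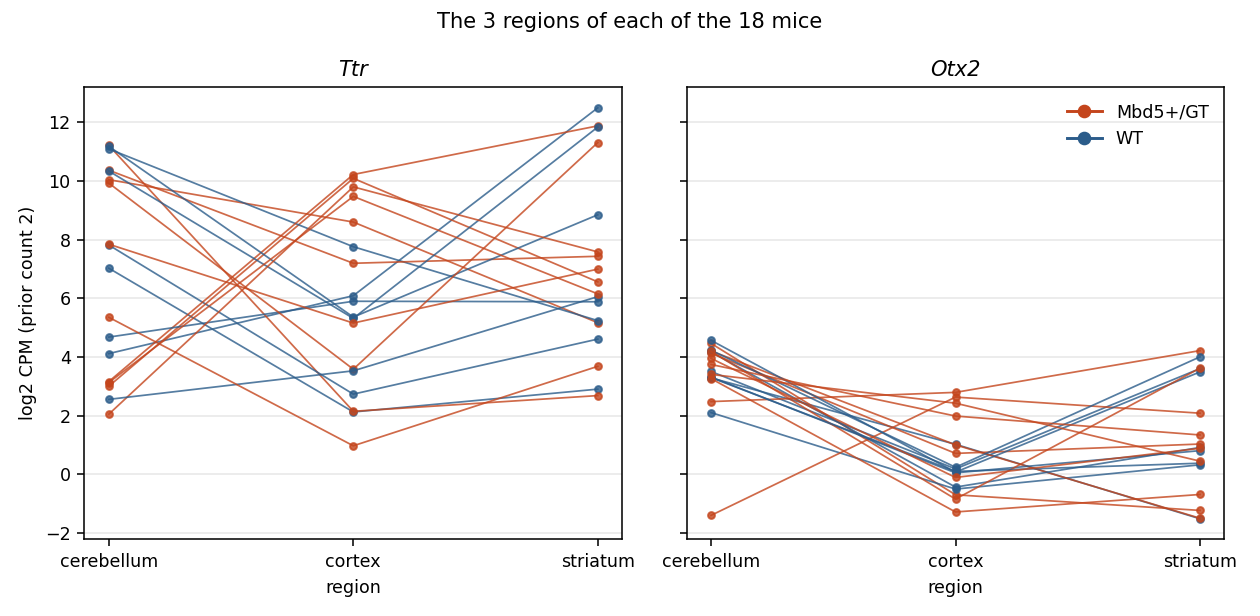
Levels of Ttr and Otx2 as log2 CPM (prior count 2) in cerebellum, cortex and striatum, with a line joining the 3 regions of each of the 18 mice, Mbd5+/GT in red and WT in blue. The lines for Ttr cross freely, whereas for Otx2 the cerebellum point lies above the cortex point in 16 of 18 mice, the exceptions being Mbd5+/GT mice M755 and M758.

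Scaled to exon length, so that genes can be compared, Ttr and Enpp2 stood far above the other 8 genes. The median level over the 18 mice in cerebellum was 150 CPM per kb for Ttr and 77.7 CPM per kb for Enpp2, followed by 3.78 for Clic6 and 2.92 for Otx2. In cortex the order of the first pair was turned, with 50.4 CPM per kb for Enpp2 and 42.5 CPM per kb for Ttr, followed by 2.91 for Clic6 and 1.39 for Kcnj13. In striatum Ttr had 69.8 CPM per kb, Enpp2 54.3 CPM per kb, Clic6 3.76 CPM per kb and Kcnj13 0.729 CPM per kb. The remaining genes lay between 0.241 and 1.46 CPM per kb in cerebellum, between 0.246 and 0.686 in cortex and between 0.363 and 0.518 in striatum. In cerebellum and striatum the lowest library of Enpp2 lay above the highest of Clic6, the next in the order, on this scale, whereas the ranges of all other neighbours in the order, Ttr and Enpp2 included, overlapped, so these did not differ beyond their spread.

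Folr1, on chromosome 7 from 101858331 to 101870788, encodes the folate receptor that carries folate across the plexus into the cerebrospinal fluid. It ranged from 0.0584 to 15.3 CPM in cerebellum, from 0.0730 to 10.4 CPM in cortex and from 0.353 to 37.3 CPM in striatum. The cerebellum library of Mbd5+/GT mouse M764 was the lowest for Folr1 and for Ttr, and the striatum library of WT mouse M751 was the highest for both. The gene overlaps Anapc15 on the opposite strand, and which strand was counted is not stated.

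The genes for channels and water transport had the same wide range. Kcne2, on chromosome 16 from 92292389 to 92298129, encodes a potassium channel subunit of the apical membrane, and ranged from 0.107 to 21.7 CPM in cerebellum, from 0.0754 to 11.2 CPM in cortex and from 0.0963 to 26.1 CPM in striatum. Kcnj13, on chromosome 1 from 87386363 to 87394729, encodes the inward rectifier Kir7.1 and lies within Gigyf2 on the opposite strand. It ranged from 0.125 to 25.7 CPM in cerebellum, from 0.877 to 16.03 CPM in cortex and from 0.0401 to 39.2 CPM in striatum. Kcnj13 thus kept a higher floor in cortex than in striatum. Aqp1, on chromosome 6 from 55336432 to 55348555, encodes the water channel of the apical membrane and ranged from 0.106 to 9.70 CPM, 0.426 to 8.25 CPM and 0.401 to 25.2 CPM in the same order of regions. Clic6, on chromosome 16 from 92485736 to 92541243, overlaps 2410124H12Rik on the same strand and encodes a chloride intracellular channel protein. It ranged from 1.91 to 50.4 CPM, 1.66 to 25.8 CPM and 2.38 to 79.1 CPM, the smallest fold range of these channel genes in cerebellum.

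Enpp2, Kl and Sostdc1 encode proteins that are released or shed from cells. Enpp2, on chromosome 15 from 54838901 to 54952892, overlaps Gm26684 on the opposite strand and encodes autotaxin, the enzyme that makes lysophosphatidic acid. Its lowest level in any library was 144 CPM, and it reached 1869 CPM in cerebellum, 986 CPM in cortex and 2182 CPM in striatum. Kl, on chromosome 5 from 150952607 to 150993817, encodes klotho, the co-receptor of the hormone FGF23, and ranged from 0.938 to 58.4 CPM, 3.58 to 36.8 CPM and 0.812 to 123 CPM. Sostdc1, on chromosome 12 from 36314139 to 36318452, encodes a secreted antagonist of BMP and Wnt signals. It ranged up to 10.2, 6.09 and 24.5 CPM. It had 0 counts in the cerebellum of WT mouse M765 and in the striatum of WT mouse M752, which allows a level of up to 0.0970 and 0.122 CPM (3 counts, counting error only).

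Otx2, on chromosome 14 from 48657677 to 48673819, overlaps Otx2os1 on the opposite strand and Gm49154 on the same strand, and stood out by its region. It ranged from 0.314 to 23.7 CPM in cerebellum, from 0.345 to 6.88 CPM in cortex and from 0.284 to 18.6 CPM in striatum. Its median of 12.3 CPM in cerebellum lay above all 18 cortex libraries. The lowest cerebellum library, with 10 counts, was that of mouse M755, which was also low in Gabra6, and the next, with 4.24 CPM, was that of mouse M754. The part of the tissue composition of these libraries in the level of Otx2 was not tested.

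**Figure D2:**
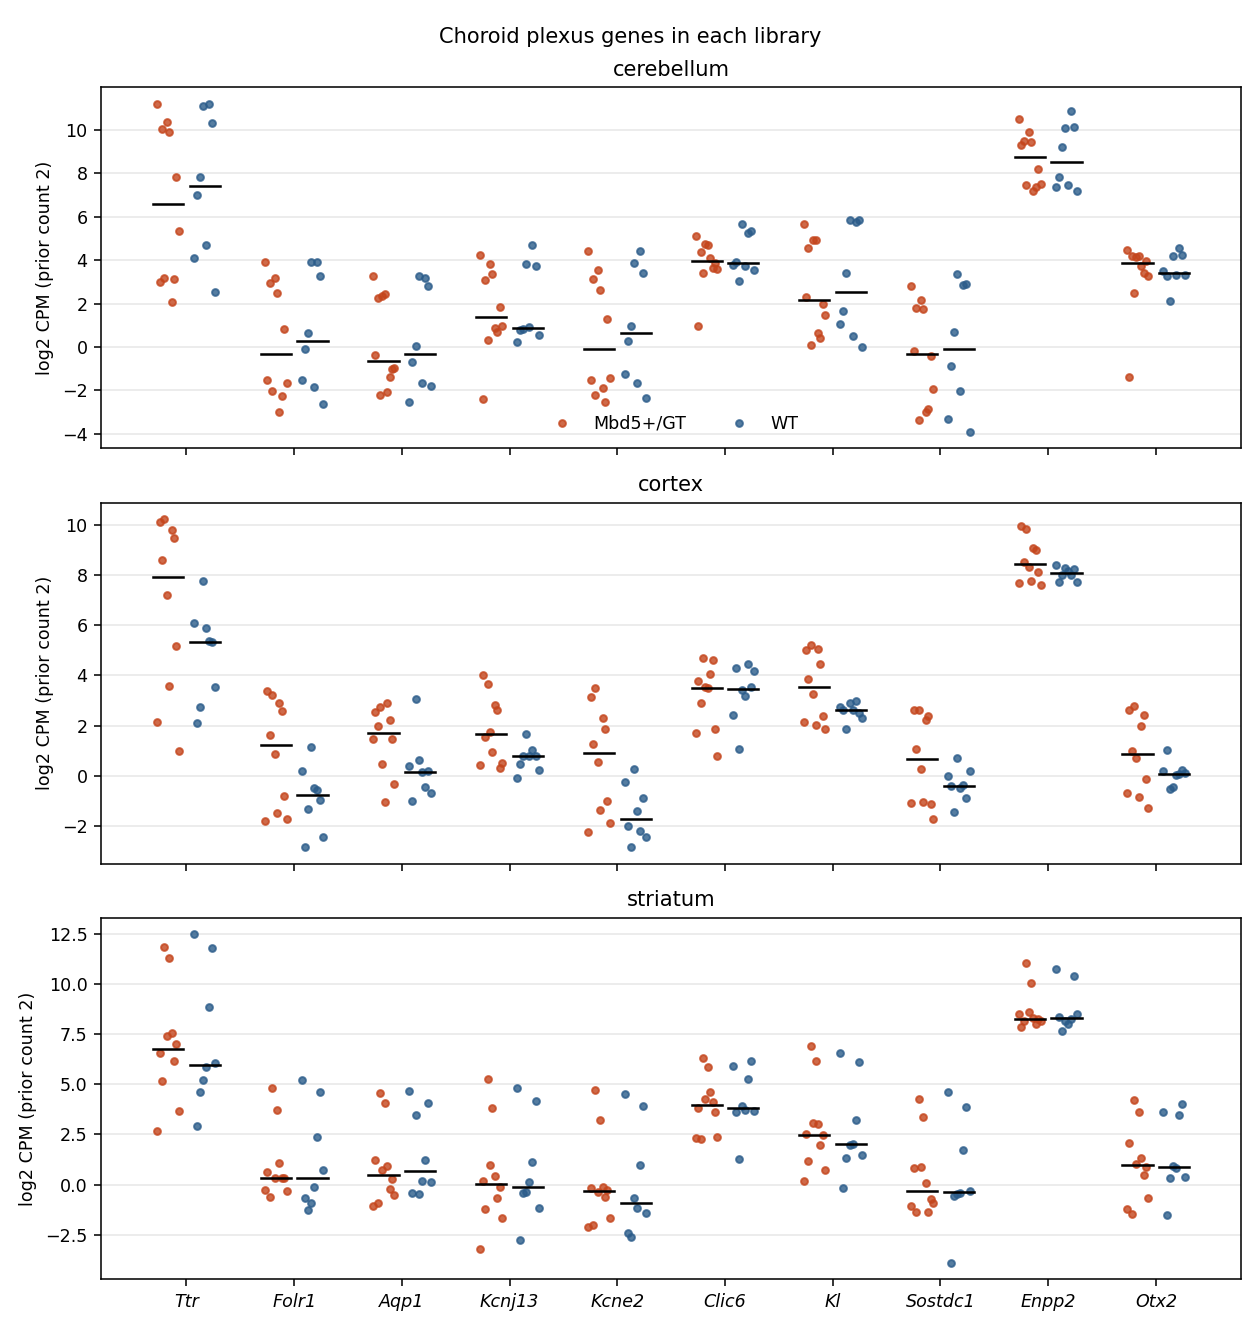
Level of each of the 10 genes in each library as log2 CPM (prior count 2), with 1 panel per region, a point per mouse, Mbd5+/GT in red, WT in blue, and a black line at the median of each group. In cortex the upper points of Ttr, Kcne2, Kl and Enpp2 are red, with the 4 highest Ttr libraries all Mbd5+/GT, whereas in cerebellum and striatum both colours reach the top.

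The other 9 genes followed Ttr from library to library. In 27 relations, 9 genes in 3 regions of 18 libraries each, Pearson's r of the log2 levels ranged from 0.546 to 0.984 in cerebellum, from 0.565 to 0.958 in cortex and from 0.834 to 0.984 in striatum, and it exceeded 0.8 for 7, 7 and 9 of the 9 genes. Folr1 was closest in cerebellum, with r = 0.984 and Spearman's rho = 0.959 (permutation p = 1e-05 for each, the smallest that 100000 permutations can give), and r = 0.980 without the 2 libraries farthest from the median of Ttr. In cortex Folr1 had r = 0.958 and rho = 0.971, and in striatum r = 0.944 and rho = 0.913 (permutation p = 1e-05 for each). Among all genes tested in a region, Folr1 ranked 1st, 3rd and 12th by its correlation with Ttr, Kcne2 ranked 2nd, 7th and 7th, and Kl ranked 8th, 9th and 1st. For most of the genes r was lower among the libraries with at most 500 CPM of Ttr. That cut narrows the range of Ttr, which by itself lowers r. What the libraries rich in Ttr added to these relations was therefore not tested. Among the 11 cerebellum libraries with at most 500 CPM of Ttr, r ranged from 0.163 to 0.948 and exceeded 0.8 for 2 genes. Among the 14 such cortex libraries it ranged from 0.218 to 0.924, and among the 14 such striatum libraries from 0.0239 to 0.962, with 4 genes above 0.8 in each. Folr1 kept r = 0.948, 0.912 and 0.772 in these libraries. Centred within litters, r exceeded 0.8 for 7, 7 and 8 genes.

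Otx2, Clic6, Aqp1 and Enpp2 followed Ttr less closely in some regions. Otx2 had r = 0.546 and rho = 0.734 in cerebellum (permutation p = 0.0025 and 0.00064), where it ranked 3004th among the genes by r, but r = 0.814 in cortex and 0.936 in striatum (permutation p = 7e-05 and 1e-05). Clic6 had r = 0.565 and rho = 0.486 in cortex (permutation p = 0.015 and 0.042), and r was 0.380 without the 2 libraries farthest from the median of Ttr. Leaving them out narrows the range of Ttr, so what they added to that relation was not tested. Aqp1 had r = 0.601 in cortex, with 0.218 among the libraries poor in Ttr. Enpp2 in striatum had r = 0.834 over all libraries and 0.0239 among those poor in Ttr. On the linear scale, a straight line through the 18 libraries put Enpp2 at 226, 224 and 284 CPM where Ttr is at 0, in cerebellum, cortex and striatum, and Otx2 at 9.11, 0.696 and 2.16 CPM. The same lines put Clic6 at 11.3, 9.29 and 13.9 CPM and Folr1 at 0.118, 0.214 and 0.593 CPM. The line for Folr1 rose by 6.59, 8.26 and 6.48 CPM for each 1000 CPM of Ttr, and that for Kl by 24.3, 27.3 and 20.7 CPM.

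**Figure D3:**
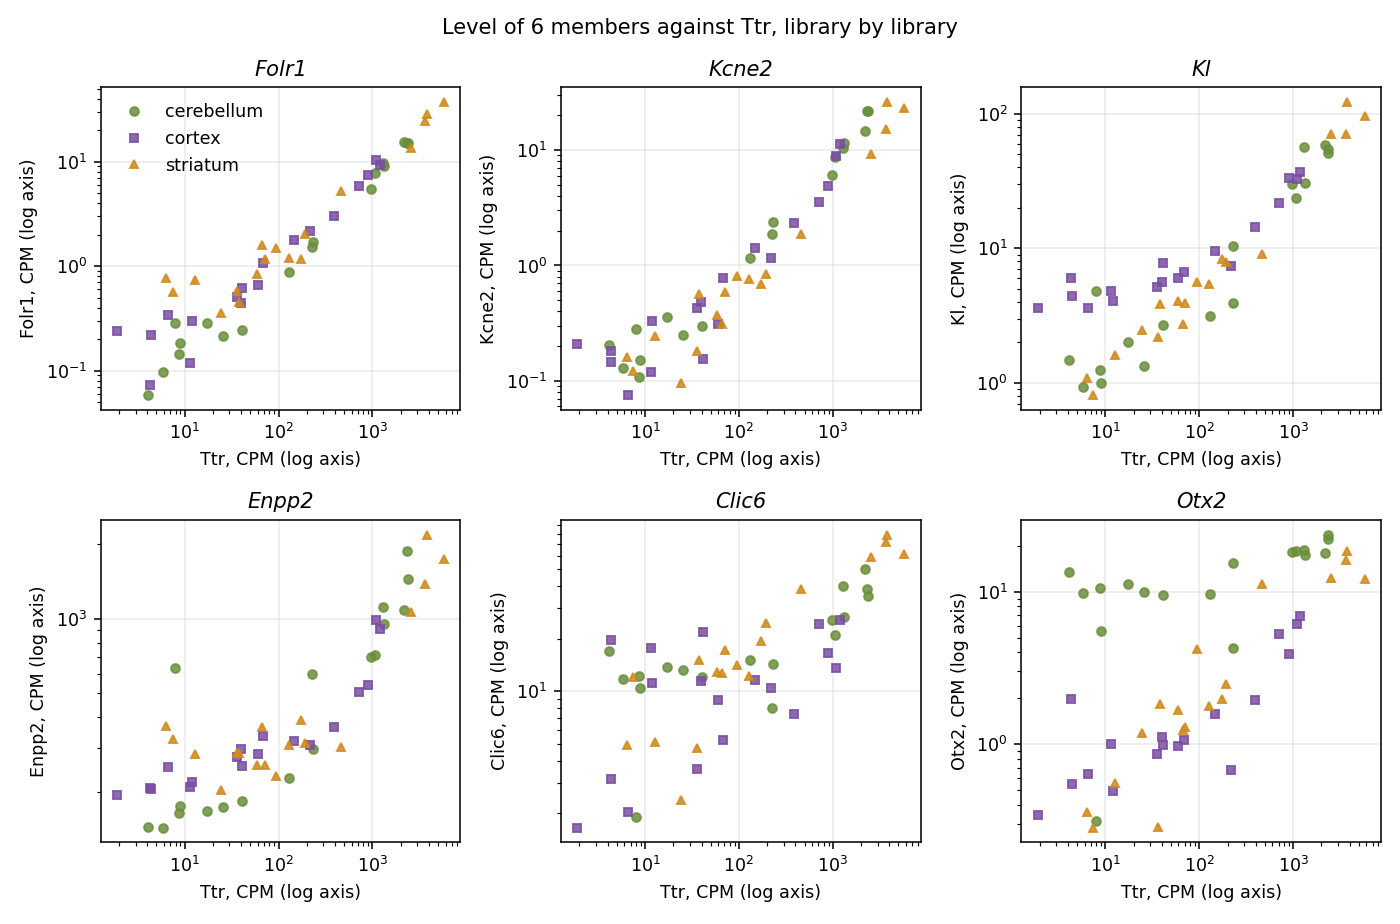
Level of 6 of the genes against that of Ttr in the same library, both in CPM on log axes, with a point per library and cerebellum, cortex and striatum marked by colour and shape. Folr1, Kcne2 and Kl rise along 1 band over the range of Ttr, the lowest point of Enpp2 is at 144 CPM, and the Otx2 point lies higher in cerebellum than in cortex for 16 of 18 mice and higher in cerebellum than in striatum for 15.

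Genes outside the 10 that were most like Ttr, by r over the 18 libraries, were named in each region. In cerebellum they were Tmem72 (r = 0.957), Mfrp (r = 0.947), Oca2 (r = 0.943), Slc24a5 (r = 0.940) and Gm853 (r = 0.929). In cortex they were Mfrp (r = 0.977), Slc4a5 (r = 0.962), Tmem72 (r = 0.944), Prr32 (r = 0.935) and F5 (r = 0.926). In striatum they were Mfrp (r = 0.982), Steap1 (r = 0.980), Cldn2 (r = 0.967), Tmem72 (r = 0.965) and F5 (r = 0.960). Mfrp and Tmem72 were among the 5 in all 3 regions. All these genes were low, with medians from 0.0800 CPM for Gm853 in cerebellum to 1.65 CPM for F5 in cortex. Oca2, Slc24a5 and Gm853 in cerebellum, Mfrp in cortex, and Mfrp, Cldn2 and Tmem72 in striatum were at 0 CPM in their lowest library. Of 42 other genes known in the choroid plexus and found by name, r with Ttr exceeded 0.8 for 24 of 39 tested in cerebellum, 15 of 38 in cortex and 30 of 41 in striatum. The 3 most abundant of that list were Atp2b3, a calcium pump, Igf2, a growth factor, and Slco1c1, a thyroid hormone transporter. They followed Ttr less, with r = 0.574, -0.175 and 0.480 for Atp2b3, r = 0.351, 0.0743 and 0.880 for Igf2 and r = 0.593, 0.432 and 0.607 for Slco1c1.

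The ciliated ependyma that lines the ventricles is the tissue next to the plexus. The summed level of 14 genes of ependyma and motile cilia had r = 0.634, 0.506 and 0.636 with Ttr in cerebellum, cortex and striatum. The summed level of 8 oligodendrocyte genes had r = -0.237, 0.757 and -0.172, and that of 10 meningeal fibroblast genes had r = -0.113, -0.330 and 0.269. The erythrocyte genes, a sign of blood, had r = -0.382, 0.0991 and -0.298, and 6 genes of the hippocampal formation had r = 0.595, 0.513 and 0.573. The genes of retinoid and thyroid hormone carriage had r = 0.762 in cerebellum, -0.0835 in cortex and 0.148 in striatum. The BMP and Wnt antagonists and ligands had r = 0.682, -0.353 and 0.0873 in the same order. No gene of these lists was at 0 in all libraries of a region, but some were at 0 in at least 1 library. In cerebellum these were 1 hippocampal gene and 1 hormone carriage gene. In cortex and in striatum it was 1 gene of the BMP and Wnt list. The correlations share the 18 libraries of a region and are given as a description.

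In cortex, 9 of the 10 genes were higher in Mbd5+/GT mice than in WT mice at an unadjusted p under 0.05, the exception being Clic6, but none passed the adjustment over all genes tested. Of the 18661 genes tested, 3.96% passed the same unadjusted threshold as higher in Mbd5+/GT mice and 4.51% as lower, and 0.0107% passed the adjustment. In such bulk samples fewer or more cells of the plexus and less or more RNA per cell cannot be told apart. The fitted log2FC, with its standard error (SE), was 3.35 (SE 1.28) for Ttr, 2.98 (SE 0.85) for Kcne2, 2.57 (SE 0.85) for Folr1 and 1.57 (SE 0.42) for Kcnj13. It was 0.68 (SE 0.28) for Enpp2 and 0.22 (SE 0.29) for Clic6. The adjusted p was 0.50 for Ttr, 0.39 for Kcne2, 0.44 for Folr1, 0.34 for Kcnj13 and 0.90 for Clic6 (edgeR's quasi-likelihood test with 4 surrogate variables). For Sostdc1, Kl, Aqp1 and Otx2 the log2FC was 1.66 (SE 0.63), 1.43 (SE 0.51), 1.38 (SE 0.59) and 1.34 (SE 0.52), with an adjusted p between 0.47 and 0.54. The median log2FC of all 10 genes was 1.503, against -0.0042 over all genes.

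By DESeq2 with the same surrogate variables, 2 of the 10 passed the adjustment in cortex, Kcne2 with a log2FC of 3.02 and Ttr with 3.40 (Wald test, adjusted p = 0.0306 and 0.0496), where 0.351% of all genes passed. The number of genes at an unadjusted p under 0.05 in edgeR stayed at 9 with other size factors. It was 8 with no surrogate variables, with 1 fewer, or with litter and sex in their place. The number depended more on the libraries and the filter. It was 3 without litter 2, which has 1 WT mouse, where 4.26% of all genes were higher. It was 2 without the cortex libraries of WT mice M752, M761 and M765, where 1.39% of all genes were higher, and 2 with no filter on low counts, where 4.27% were. The median log2FC of the 10 genes in these settings was 0.73, 1.13 and 1.04, and that of Ttr was 1.17, 1.85 and 1.63.

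The same comparison was made for each gene on the levels themselves, with no surrogate variables, by an exact 2-sided permutation test over the 43758 ways of dividing 18 mice into 10 and 8 (30 such values were computed, 10 genes in 3 regions, with unadjusted p-values, none of which stayed under 0.05 with Benjamini-Hochberg adjustment over the 30). Kcne2 in cortex ranged from 0.147 through a median of 1.88 to 11.2 CPM in Mbd5+/GT mice and from 0.0754 through 0.247 to 1.15 CPM in WT mice. The WT cortex libraries held only 2 to 29 counts of Kcne2, and 1 of them 3 or fewer. Of the Mbd5+/GT mice, 6 lay above every WT mouse and the other 4 lay within the WT range. The mean log2 level was higher by 2.08 (exact permutation p = 0.025, and 0.025 over the 3500 divisions that keep each litter's numbers), and the p stayed between 0.010 and 0.048 with each of the 18 mice left out. Kcnj13 in cortex ranged from 1.18 through 3.10 to 16.03 CPM in Mbd5+/GT mice and from 0.877 through 1.66 to 3.13 CPM in WT mice, with 5 Mbd5+/GT mice above every WT mouse. Its mean log2 level was higher by 1.15 (exact permutation p = 0.038). With single mice left out this p lay between 0.018 and 0.072, and it was under 0.05 for 8 of the 18, and it exceeded 0.05 on omission of any one of Mbd5+/GT mice M755, M758, M764 and M766 and WT mice M751, M752, M754, M759, M762 and M765.

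The remaining genes of the cortex did not reach 0.05 by the exact permutation test. Ttr was higher by 1.87 on the log2 scale (exact permutation p = 0.19), with 5 of 10 Mbd5+/GT mice above every WT mouse and the lowest of all 18 libraries, that of mouse M768, also Mbd5+/GT. Folr1 ranged from 0.221 through 2.39 to 10.4 CPM in Mbd5+/GT mice and from 0.0730 through 0.532 to 2.18 CPM in WT mice, and was higher by 1.78 (exact permutation p = 0.058). Kl ranged from 3.59 through 12.0 to 36.8 CPM against 3.58 through 6.06 to 7.84 CPM, and was higher by 0.96 (exact permutation p = 0.071). The highest WT level of Kl was thus 2.19 times the lowest, and the highest Mbd5+/GT level was 10.2 times the lowest. Enpp2 ranged from 194 through 343 to 986 CPM against 209 through 270 to 338 CPM (exact permutation p = 0.11), and again the lower end was shared by the genotypes. Aqp1 ranged from 0.426 through 3.30 to 7.46 CPM against 0.438 through 1.06 to 8.25 CPM (exact permutation p = 0.080), and no Mbd5+/GT mouse lay above WT mouse M754. For Sostdc1 the ranges were 0.242 to 6.09 CPM and 0.302 to 1.59 CPM (exact permutation p = 0.17), and for Otx2 they were 0.345 to 6.88 CPM and 0.641 to 1.97 CPM (exact permutation p = 0.19). Clic6 overlapped almost fully, with 1.66 to 25.8 CPM against 2.04 to 21.9 CPM and a difference of -0.17 (exact permutation p = 0.77). The difference of the means was positive in each of the 3 litters for every gene but Clic6, although litter 2 rests on 1 WT mouse.

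Other marker lists were compared in the same cortex fit. Of the 42 other choroid plexus genes found by name, 38 were tested, and 23 were higher in Mbd5+/GT mice at an unadjusted p under 0.05 and none lower, with a median log2FC of 0.69 and a lowest adjusted p of 0.24. Of the 14 genes of ependyma and motile cilia, 11 were higher at an unadjusted p under 0.05 and none passed the adjustment, with a median log2FC of 0.73. Their summed level ranged from 17.1 to 75.9 CPM in Mbd5+/GT cortex and from 17.4 to 31.7 CPM in WT cortex. The summed level of 6 genes of the hippocampal formation, which borders the lateral ventricle, ranged from 14.2 to 76.3 CPM and from 13.6 to 24.0 CPM, and 1 of the 6, Dsp, was higher at an unadjusted p under 0.05 (log2FC 1.90). None of 10 meningeal, 8 oligodendrocyte and 5 erythrocyte genes passed that threshold. The 4 cortex libraries richest in Ttr were all Mbd5+/GT. Their part in these results, and that of the tissue composition of the cortex pieces, was not tested.

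Few genes of the pathways in which the 10 genes act passed that threshold in cortex, where 3.96% of all genes passed it as higher and 4.51% as lower. Of 10 other genes of folate, fluid and ion transport, none had an unadjusted p under 0.05, and of 6 tested genes of the klotho and FGF23 pathway none did. Of 9 genes of retinoid and thyroid hormone carriage, 1 was lower (Dio2, log2FC -0.24). Of 8 genes of the lysophosphatidate pathway, 1 was higher (Lpar6, log2FC 0.20). Of 8 tested BMP and Wnt antagonists and ligands, 1 was lower (Nog, log2FC -0.25). Dio2 encodes the deiodinase that activates thyroid hormone, Lpar6 a lysophosphatidic acid receptor and Nog the BMP antagonist noggin. Of 6 genes listed for Purkinje cells, 2 were lower (Calb1 and Itpr1), while 3 had a positive log2FC and the median was -0.080. Levels in cortex were 89.9 to 179 CPM for Calb1 and 0.0974 to 3.07 CPM for Pcp2, another gene of that list. Of 9 tested region identity genes none passed.

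In cerebellum and striatum no choroid plexus gene passed a threshold between genotypes in edgeR. In cerebellum none of the 10 had an unadjusted p under 0.05 in edgeR or passed the adjustment in edgeR or DESeq2, where the unadjusted threshold took in 0.964% of all genes as higher and 1.78% as lower, and 0.00551% passed the adjustment. The log2FC of the 10 genes ranged from -0.69, for Ttr (SE 0.94), to 0.056, with a median of -0.21. Without the cerebellum libraries of mice M754 and M755 their median was 0.047 and that of Ttr was 0.0012. By the exact permutation test the mean log2 level of Ttr differed by -0.74 (p = 0.66). In striatum none of the 10 had an unadjusted p under 0.05 in edgeR, where 4.24% of genes were higher and 3.2% lower and 0.00539% passed the adjustment. In DESeq2, 2 were lower at that threshold, none of them after adjustment, where 3.22% of all genes were lower. The log2FC ranged from -1.93, for Ttr (SE 1.48), to -0.35, with a median of -1.36. That median was -1.22 without the striatum library of mouse M754 and -0.021 without the 2 striatum libraries labelled as repeated, 1 of which, of WT mouse M751, held the most Ttr of all 54. It was also -0.026 without litter 2 and 0.031 with litter and sex in place of the surrogate variables. The difference of mean log2 levels of Ttr in striatum was -0.29 (exact permutation p = 0.85).

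The other lists gave few calls there. In cerebellum 2 of 39 other choroid plexus genes and 1 of 10 region identity genes were lower at an unadjusted p under 0.05, and no gene of the other lists passed that threshold. Of all genes tested in cerebellum, 1.78% were lower and 0.964% higher at that threshold. In striatum 2 of 41 other choroid plexus genes were lower, 1 gene each of the transport and lysophosphatidate lists was higher and 1 gene each of the hormone carriage and BMP lists was lower, none of them after adjustment. Of all genes tested in striatum, 3.2% were lower and 4.24% higher at the unadjusted threshold.

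**Figure D4:**
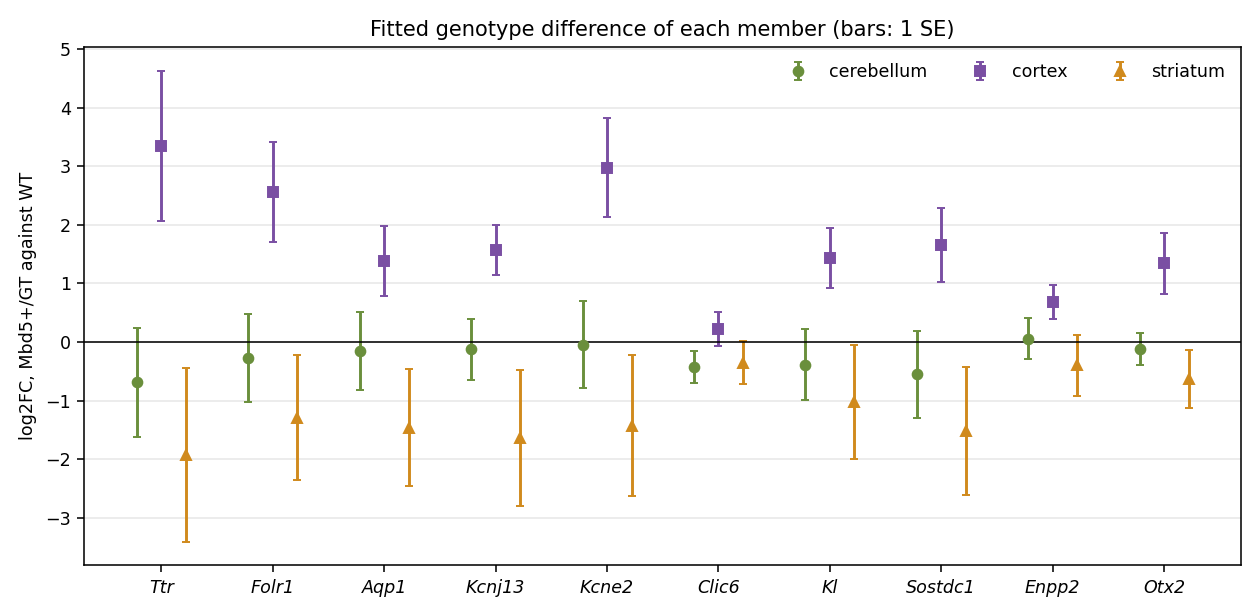
Fitted log2FC of each of the 10 genes, Mbd5+/GT against WT, in cerebellum (circles), cortex (squares) and striatum (triangles), with bars of 1 SE from edgeR's quasi-likelihood fit. The 10 cortex points lie above 0, from 0.22 to 3.35, and the striatum points lie below it with bars that reach up to 1.48 to either side.

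Whether the effect of genotype differed between regions was tested by interaction contrasts in 1 fit of the 54 libraries. None of the 10 genes passed the adjustment over all 20477 genes in any of the 3 contrasts, nor did any other gene (0% for cortex minus cerebellum, 0% for striatum minus cerebellum and 0% for striatum minus cortex). At an unadjusted p under 0.05, 2 genes differed between cortex and cerebellum, Kcne2 with a difference of log2FC of 3.34 (SE 1.57) and Folr1 with 2.95 (SE 1.45), where 1.11% of all genes did. None differed between striatum and cerebellum, where 2.68% of all genes did. Between striatum and cortex 3 differed, Ttr with -3.85 (SE 1.84), Kcne2 with -3.43 (SE 1.58) and Folr1 with -3.30 (SE 1.45), where 4.22% of all genes did. The adjusted p was 1.00 for those between cortex and cerebellum and 0.989 for those between striatum and cortex (edgeR's quasi-likelihood test). With the mouse as a replicate block, Folr1 between striatum and cortex remained at an unadjusted p under 0.05 with -3.32 (SE 1.61), where 3.93% of all genes did.

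Between regions, the clearest difference was that of Otx2, which was highest in cerebellum. In the fit of 54 libraries, averaged over the genotypes, Otx2 was lower in cortex than in cerebellum with a log2 difference of -2.93 (SE 0.49, edgeR adjusted p = 6.9e-07), and lower in striatum than in cerebellum with -1.39 (SE 0.46, edgeR adjusted p = 0.0055). With the mouse as a replicate block, since the regions came from the same animals, these were -3.15 (adjusted p = 9.6e-07) and -2.15 (adjusted p = 0.00018). No other gene of the 10 differed between striatum and cerebellum, where 37.3% of the 20477 genes were higher and 38% lower in striatum.

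Kcne2, Ttr and Enpp2 were also lower in cortex than in cerebellum, though not all of them with the block. Kcne2 had a log2 difference of -2.30 (SE 0.80, edgeR adjusted p = 0.0095), and with the block -2.14 (adjusted p = 0.031). Ttr was lower, with -2.11 (SE 0.92, adjusted p = 0.039), but with the block its adjusted p was 0.10. Enpp2 was lower, with -0.79 (SE 0.36, adjusted p = 0.049), and with the block -0.56 (adjusted p = 0.17). Clic6 had -0.77 (adjusted p = 0.075), and with the block it passed, with -0.92 (adjusted p = 0.022). In all, 4 of the 10 were lower in cortex and none higher, where 35.5% of all genes were lower and 33.3% higher, and with the block 3 were lower, where 34.9% of all genes were. Without the cerebellum libraries of mice M754 and M755 and the striatum library of mouse M754, 5 were lower: Folr1 and Clic6 passed as well and Enpp2 no longer did, where 35.9% of all genes were lower.

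Between striatum and cortex, 6 of the 10 were higher in striatum, where 28.9% of all genes were higher and 30.1% lower, but with the mouse as a replicate block 1 remained, where 28.4% of all genes were higher. The 6 were Ttr with a log2 difference of 2.57 (SE 0.94), Folr1 with 2.04 (SE 0.73), Kcne2 with 1.98 (SE 0.79), Sostdc1 with 1.62 (SE 0.69), Otx2 with 1.54 (SE 0.47) and Clic6 with 1.11 (SE 0.39), and the edgeR adjusted p lay between 0.0049 for Otx2 and 0.038 for Sostdc1. With the block Clic6 remained, with 0.86 (adjusted p = 0.036), while Ttr had 1.15 (adjusted p = 0.37), Folr1 1.33 (adjusted p = 0.15), Kcne2 0.89 (adjusted p = 0.39), Sostdc1 0.46 (adjusted p = 0.62) and Otx2 1.00 (adjusted p = 0.085). The collection day of a tissue and its region cannot be told apart, since each tissue was collected on 1 day.

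The levels of a gene in different regions of the same mouse were compared. Over the 18 mice, 30 relations of a gene's log2 level between a pair of regions were computed, and r ranged from -0.485 to 0.609. For Ttr r was -0.335 between cerebellum and cortex (rho = -0.325, permutation p = 0.17 and 0.19), -0.0843 between cerebellum and striatum (rho = -0.172, permutation p = 0.74 and 0.49) and 0.357 between cortex and striatum (rho = 0.498, permutation p = 0.15 and 0.038). The largest r was that of Clic6 between cortex and striatum, 0.609 with rho = 0.546 (permutation p = 0.0074 and 0.021), and r = 0.382 without the 2 mice farthest from the median. Kcne2 between cortex and striatum had r = 0.325 and rho = 0.540 (permutation p = 0.19 and 0.023). Of the 30, 2 had a permutation p under 0.05 by Pearson's r and 3 by Spearman's rho, and none stayed under 0.05 with Benjamini-Hochberg adjustment over the 30.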

How the data were processed

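RNA-seq of 3 brain regions from each of 18 mice was analysed, with genotype, region, litter, sex and mouse taken from the labels. The human cell lines of the same study were not analysed here. The deposited table holds raw read counts, 1 whole number per gene and library, which the authors obtained by aligning reads to GRCm38 with STAR and its GeneCounts option, with Ensembl annotation. The submitters' processing notes name STAR 2.4.2 and FastQC 0.10.1. The strand column kept is not given in the sources used here, so the levels of Folr1, Kcnj13, Clic6, Enpp2 and Otx2, which overlap other genes, are uncertain. The table held 92 spike-ins (0.0207% to 0.728% of a library), which were left out. All 54 columns were used and 0 were left unused.

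A gene was tested in a region if 8 or more of its libraries had over 4 counts, and all 10 choroid plexus genes passed in each region. Counts were normalized by TMM and fitted per region with edgeR 4.0.16 (robust quasi-likelihood, R 4.3.3) on genotype and surrogate variables from sva 3.50.0 (2 in cerebellum, 4 in cortex and 4 in striatum, the numbers of the study), which explained 67.9%, 36.1% and 70.8% of the variance of log2 Ttr. SE is the size of a log2FC divided by the square root of F. The test was chosen here, since the study's methods name none, and p-values were adjusted by Benjamini-Hochberg over all genes tested. Regions and interactions were tested in 1 fit of 6 group means. Levels are CPM by TMM over the 54 libraries, with a prior count of 2 on the log2 scale, and CPM per kb uses the exon union of the GENCODE annotation of GRCm38. DESeq2 1.42.0, other size factors, filters and covariates, and libraries left out were alternatives. The exclusions of libraries low or high in neuron markers and of those above 500 CPM of Ttr were chosen after seeing the data. The fits were tested on simulated data.

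Regions of 1 mouse came from the same animal, so the mouse is a true pairing: deviations from the group means had a median correlation of 0.164, 0.0618 and 0.0911 within a mouse and of -0.0103, -0.00495 and -0.00588 between mice, for cerebellum with cortex, cerebellum with striatum and cortex with striatum. No 2 libraries of a group agreed within sampling noise (lowest chi-square per gene 8.26 over 219 pairs), so the spread between mice rather than depth sets the precision, except at a few counts. Intervals and limits cover counting error only.

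The 10 genes and the lists of other choroid plexus, ependymal, meningeal, oligodendrocyte, Purkinje, hippocampal, erythrocyte, region identity and pathway genes were chosen with earlier results of these data known. By rule the 10 genes were named, with Mbd5, the 5 other genes most correlated with Ttr per region, and of the other choroid plexus genes those passing the adjusted threshold or else the 3 with the highest mean CPM. Other genes were named after their values were seen.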

Additional observations from a re-analysis of the deposited data

Results flagged for a closer look

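In 60 groups of libraries, 10 genes in 2 genotypes and 3 regions, the highest or lowest library was tested for standing apart by Dixon's criterion, which flags about 1 in 20 groups by chance, and 3 did so. Aqp1 in the cortex of WT mouse M754 had a log2 level of 3.06 (8.25 CPM), against 0.438 to 1.47 CPM in the other 7 WT cortex libraries, and the gap was 0.603 of the range. The same mouse held 6.596 CPM of Ttr in cortex. Clic6 in the cerebellum of Mbd5+/GT mouse M755 had a log2 level of 0.98 (1.91 CPM), against 10.4 to 35.0 CPM in the other 9, a gap of 0.581 of the range. Otx2 in the same library had a log2 level of -1.40 (0.314 CPM), against 5.52 to 22.03 CPM in the other 9, a gap of 0.662 of the range. That library also held 1.76 CPM of Gabra6 and 1.60 CPM of Pcp2, genes of granule and Purkinje cells, against 539 to 955 and 146 to 517 CPM in the 16 cerebellum libraries not low in neuron markers. The part of its composition in the low Clic6 and Otx2 was not tested.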

How the results depend on the processing

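Of the 158 recomputed counts of choroid plexus genes, 131 stayed within 1.5 times the main count. Every count of 0 that stayed at 0 is among the 131. These include, for each of cerebellum and striatum, 18 counts at an exact p under 0.05 with single mice left out. The tally therefore does not show how stable the counts above 0 were. In cortex 2 genes passed the adjustment by DESeq2 against 0 by edgeR. The 9 genes at an unadjusted p under 0.05 became 2 with no filter, 3 without litter 2 and 2 without the cortex libraries of mice M752, M761 and M765. With at least 10 counts in every library, 7 of the 10 were tested and 2 passed, where 893 of 15289 genes were higher. The count was 9 with other size factors, and 8 with no surrogate variables, 1 fewer, or litter and sex. In striatum DESeq2 gave 2. The 2 genes with an exact p under 0.05 in cortex became 1 without litter 2 and 1 to 5 with single mice left out. With at least 10 counts in every library, which removes genes, 1 gene differed between cortex and cerebellum, 0 between striatum and cerebellum and 2 between striatum and cortex. With the mouse as a replicate block 3, 1 and 1 differed, and 0 interactions passed, and the block changed no adjusted call besides those given with the regions. Among libraries with at most 500 CPM of Ttr, 2, 4 and 4 genes had r above 0.8 in cerebellum, cortex and striatum.

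Some signs turned. Ttr in cerebellum, with a log2FC of -0.69 in edgeR, had 0.74 with litter and sex and 0.0012 without mice M754 and M755, and in striatum, with -1.93, it had 0.28 with litter and sex and 0.083 without the 2 repeated libraries. With litter and sex 5 of the 10 genes were positive in striatum, against 0. Clic6 in cortex, with 0.22, had -0.032 with no filter, -0.035 with no surrogate variables and -0.13 with litter and sex. The difference of mean log2 levels was 0.15 for Clic6 in cortex and 0.10 for Ttr in striatum without litter 2, and with single mice left out it ranged from -0.49 to 0.088 and from -0.91 to 0.46. The cause of these shifts was not tested. Depth limits Sostdc1, Kcne2, Folr1, Kcnj13 and Aqp1, which had 3 or fewer counts in some libraries.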
